A study of Mus musculus with 6 samples.

Results

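Circadian clock genes were followed in the hearts of young mice that carried or lacked Hspa4, the gene of a cytosolic chaperone of the Hsp110 family. The set held 10 genes: Per1, Per2, Per3, Cry1, Cry2, Clock, Npas2, Nr1d1, Nr1d2 and Dbp. Each was chosen by its symbol in the probe annotation of the array, and all 10 were found among the 20239 probe sets that carried 1 gene symbol. Total RNA came from whole heart ventricles of male 129/Sv mice aged 3.5 weeks and was read on Affymetrix Mouse Gene 1.0 ST arrays. The labels put 3 arrays in the group Hspa4-/- and 3 in the wild-type group Hspa4+/+, with n = 3 mice for each genotype, so an array was read as a mouse of its own, and the 2 groups are called mutant-labelled and wild type below. No treatment was listed for either group. Which part of Hspa4 was disrupted, in which cells, and the hour at which each heart was taken were not given in the sources used here.

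Mutant-labelled replicate 1 went against its label. Hspa4 read 9.33 there on the log2 scale, 6.63 and 6.75 on the other mutant-labelled arrays, and 9.48 to 9.74 in wild type. Xist, an RNA of female cells, read 7.68 on that array and 5.51 to 5.69 on the other 5, although every mouse was labelled male. Each result is therefore given for all 6 arrays and for the 5 arrays without it. All 6 arrays had mean log2 values between 6.76 and 6.77 over all probe sets. Summed cardiomyocyte markers were high on every array (mean log2 value 11.97 to 12.16 over 6 markers), as the labelled tissue requires, while markers of lung, thymus, fat and skeletal muscle stayed between 5.65 and 6.14.

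The clock of a mammalian cell is a loop of transcription. CLOCK, or its relative NPAS2, pairs with BMAL1 (gene Arntl) and binds E-box sequences to switch on the Per, Cry, Nr1d and Dbp genes. PER and CRY proteins then hold that activator back, and the nuclear receptors NR1D1 and NR1D2 (REV-ERB alpha and beta) repress Arntl and its neighbours in the loop. DBP, with TEF and HLF, passes the rhythm on through D-box sequences. In the heart and other peripheral mouse tissues, Nr1d1, Nr1d2, Dbp, Per1, Per2, Per3 and, more weakly, Cry2 rise through the day, whereas Arntl, Npas2, Clock and Cry1 are highest in the night or early morning. The first 7 are called day-phase genes here, and the 3 members Clock, Npas2 and Cry1 night-phase genes. A difference in the hour of sampling can move day-phase and night-phase genes in opposite directions, depending on the hours compared.

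Sequence before the transcription start was available from RefSeq (assembly GRCm38.p6) for 9 of the 10 genes, all but Per2. The 250 bases before each start were searched on both strands for the E-box CACGTG, its variant CACGTT, the D-box TTATGTAA or TTACGTAA, the nuclear receptor hexamer AGGTCA and the cyclic AMP element TGACGTCA. Of all 32851 such windows in the mouse table, 6.02% held CACGTG, 3.85% CACGTT, 0.931% a D-box, 14.0% AGGTCA and 1.55% TGACGTCA. Among the 9 genes, 2 had CACGTG, 3 had CACGTT, 1 had a D-box, 3 had AGGTCA in at least 1 of their windows, and 0 had TGACGTCA. These counts are per gene and the percentages per window, and Per1 and Clock had several windows each, so the 2 measures are not alike. The 5 windows below belong to the 4 members whose groups did not overlap on 6 arrays, plus Cry1 as a member with motifs and a difference near 0. Capitals mark the matches, and each window is written 5′ to 3′ on the strand of its gene. For genes with several listed starts, the window at the first is shown. The Per1 window (chr11:69098699-69098948, plus strand) held an E-box 166 bases before the start and TGACCT, the reverse complement of AGGTCA, at 137 bases, and the window at its second listed start held 0 of these motifs. In the Per3 window (chr4:151044666-151044915, minus strand) the D-box TTATGTAA occurred at 205 and at 158 bases before the start. The Cry2 window (chr2:92434070-92434319, minus strand) held AACGTG, the reverse complement of CACGTT, at 166 bases. That of Cry1 (chr10:85185055-85185304, minus strand) held AACGTG at 79 bases and CACGTG at 60 bases. For Clock the window at the first listed start (chr5:76304793-76305042, minus strand) held 0 of these motifs, as did that at the second, while that at the third held TGACCT at 119 bases.
Per1: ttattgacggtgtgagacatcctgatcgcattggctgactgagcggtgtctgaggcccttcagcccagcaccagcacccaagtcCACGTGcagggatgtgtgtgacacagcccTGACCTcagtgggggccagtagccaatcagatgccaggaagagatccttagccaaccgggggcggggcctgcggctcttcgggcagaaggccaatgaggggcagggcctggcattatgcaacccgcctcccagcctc
Per3: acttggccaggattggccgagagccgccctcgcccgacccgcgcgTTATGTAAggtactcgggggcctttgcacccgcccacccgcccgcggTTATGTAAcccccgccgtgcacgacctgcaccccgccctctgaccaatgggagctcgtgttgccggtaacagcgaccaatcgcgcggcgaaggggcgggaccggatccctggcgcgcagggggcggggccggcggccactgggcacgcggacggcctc
Cry2: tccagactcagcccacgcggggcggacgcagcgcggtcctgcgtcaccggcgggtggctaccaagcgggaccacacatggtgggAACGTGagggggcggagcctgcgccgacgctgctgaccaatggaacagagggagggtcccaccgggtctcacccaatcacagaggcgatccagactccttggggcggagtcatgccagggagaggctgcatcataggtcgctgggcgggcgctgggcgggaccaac
Cry1: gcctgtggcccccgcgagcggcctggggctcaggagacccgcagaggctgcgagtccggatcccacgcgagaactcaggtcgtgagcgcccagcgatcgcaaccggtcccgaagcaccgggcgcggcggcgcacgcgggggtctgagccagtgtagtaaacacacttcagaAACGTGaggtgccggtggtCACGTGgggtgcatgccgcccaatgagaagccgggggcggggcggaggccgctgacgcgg
Clock: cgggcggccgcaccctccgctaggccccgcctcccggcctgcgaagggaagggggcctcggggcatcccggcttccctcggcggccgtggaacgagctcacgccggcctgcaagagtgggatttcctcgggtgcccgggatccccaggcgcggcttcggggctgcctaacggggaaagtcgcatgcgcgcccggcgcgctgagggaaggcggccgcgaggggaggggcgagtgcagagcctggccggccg

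The question put to these arrays was whether the activators and repressors of the clock differed between the genotypes, and whether they did so in the manner of hearts sampled at another hour. Per1, Per3 and Cry2 had higher values on every mutant-labelled array than on any wild-type array, Clock had lower values on every one, and the mean differences of Nr1d1, Npas2 and Cry1 lay between −0.04 and 0.05. With all 6 arrays the log2 differences (Hspa4-/- minus wild type) ran from −0.28 for Clock to 0.41 for Per3, and 8 of 10 lay above 0, as did 45.8% of all genes. Their median was 0.15, beside −0.01 over all genes. None of the 10 passed an adjusted p of 0.05 over all genes (limma, Benjamini-Hochberg), where 0% of the 20239 genes passed. At an unadjusted p under 0.05 (limma), there were 4 of 10 members, against 11.2% of all genes: Per1, Per3 and Cry2 were higher (3 of 10, against 5.64%) and Clock lower (1 of 10, against 5.53%). The same 4 genes were those whose 2 groups of values did not overlap, against 15.1% of all genes, 6.08% higher and 9.07% lower. Without mutant-labelled replicate 1, again 0 of 10 passed (limma), where 0.44% of all genes passed. Dbp then joined Per1, Per3, Cry2 and Clock at an unadjusted p under 0.05, making 5 of 10 against 14.9% of all genes, 8.55% higher and 6.36% lower. Groups that did not overlap numbered 6 of 10 on the 5 arrays, against 33.3% of all genes (14.4% higher and 18.9% lower), with Nr1d2 as the sixth. Both forms share 5 arrays and are not independent of each other. In RNA from whole ventricle, fewer cells of a type and less RNA per cell cannot be told apart.

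**Figure D1:**
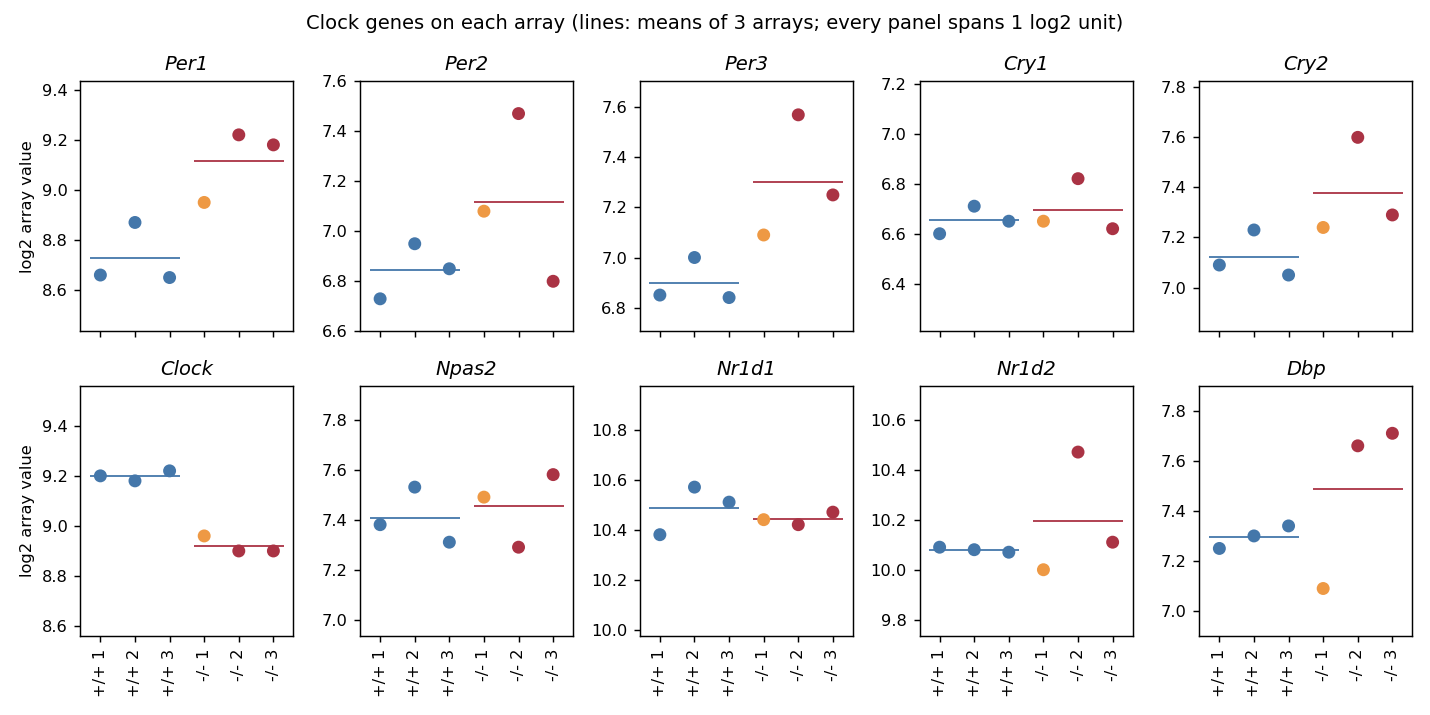
Log2 array value (y axis) of each of the 10 clock genes on each array (x axis), marked by genotype and replicate, with wild type in blue, mutant-labelled replicate 1 in orange, the other mutant-labelled arrays in red, and lines at the means of 3 arrays. Clock is lower on all 3 mutant-labelled arrays (8.90 to 8.96) than on every wild-type array (9.18 to 9.22), and Per1 and Per3 are higher on all 3.

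Among the repressors, Per1 had the smallest p (limma, unadjusted p = 0.00215). This gene of a period protein, which also responds directly to glucocorticoids and to cyclic AMP, read 8.95, 9.22 and 9.18 on mutant-labelled replicates 1, 2 and 3. The wild-type replicates read 8.66, 8.87 and 8.65. All mutant-labelled arrays stood above all wild-type arrays, with replicate 1 nearest to them and wild-type replicate 2 the highest of its group. The mean was 9.11 ± 0.15 (SD, n = 3) against 8.73 ± 0.12 (SD, n = 3), a difference of 0.39 (SE 0.09, 1.31-fold; limma, adjusted p = 0.227). On the 5 arrays it was 0.47 (SE 0.08; limma, adjusted p = 0.0599). With limma's array weights the adjusted p for Per1 fell to 0.0488 on 6 arrays and 0.0327 on 5, so its call turned on the setting. Over all alternatives run, its adjusted p lay between 0.0488 and 0.794 on 6 arrays and between 0.0115 and 0.255 on 5 (limma).

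Per3, whose promoter window carried the pair of D-boxes, had the largest difference of the 10. It read 7.09, 7.57 and 7.25 on the mutant-labelled arrays and 6.85, 7.00 and 6.84 in wild type. The groups did not overlap, and replicate 2 of the mutant-labelled arrays stood above its group. A difference of 0.41 (SE 0.11, 1.33-fold; limma, adjusted p = 0.256) with 6 arrays became 0.52 (SE 0.10; limma, adjusted p = 0.0778) with 5. Without mutant-labelled replicate 2 the difference on 6 arrays was 0.28, and on 5 arrays 0.36.

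Per2 behaved otherwise. Its values were 7.08, 7.47 and 6.80 on the mutant-labelled arrays and 6.73, 6.95 and 6.85 in wild type. The groups overlapped, since replicate 3 of the mutant-labelled arrays lay below 2 of the wild-type arrays, and replicate 2 was the highest of all. Per2 also had the widest range of the 10 members over the 6 arrays, 0.74. The difference was 0.27 (SE 0.15; limma, adjusted p = 0.543) with 6 arrays and 0.29 (SE 0.17; limma, adjusted p = 0.466) with 5. Leaving out mutant-labelled replicate 2 brought it to 0.094 on 6 arrays and turned it to −0.045 on 5, so the higher mean of Per2 rested on that array.

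The cryptochromes are the partners of the period proteins in repression, and their difference from each other was not tested. Cry2 read 7.24, 7.60 and 7.29 on the mutant-labelled arrays and 7.09, 7.23 and 7.05 in wild type. Replicate 1 cleared wild-type replicate 2 only narrowly. The difference was 0.25 (SE 0.10, 1.19-fold; limma, adjusted p = 0.393) with 6 arrays and 0.32 (SE 0.10; limma, adjusted p = 0.201) with 5, and on 6 arrays it was 0.14 without mutant-labelled replicate 2. Cry1, the cryptochrome that peaks at night, read 6.65, 6.82 and 6.62 against 6.60, 6.71 and 6.65. Those groups overlapped, though mutant-labelled replicate 2 lay above every wild-type array. The difference was 0.04 with a 95% interval from −0.13 to 0.21 (limma).

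Of the activators, Clock had lower values, and its difference had the smallest SE of the 10. It encodes the DNA-binding partner of BMAL1 and read 8.96, 8.90 and 8.90 on the mutant-labelled arrays against 9.20, 9.18 and 9.22 in wild type. Every mutant-labelled array, replicate 1 included, lay below every wild-type array. The means were 8.92 ± 0.04 (SD, n = 3) and 9.20 ± 0.02 (SD, n = 3), a difference of −0.28 (SE 0.06, 95% interval −0.42 to −0.15; limma, adjusted p = 0.210). On 5 arrays the difference was −0.30 (SE 0.07; limma, adjusted p = 0.0877). Over all settings and left-out arrays it ran only from −0.34 to −0.27, yet its adjusted p never went under 0.0529 (limma). Npas2, which can stand in for Clock, read 7.49, 7.29 and 7.58 against 7.38, 7.53 and 7.31. There the groups overlapped, with a difference of 0.05 (95% interval −0.16 to 0.25; limma). Npas2 was lowest of all 6 arrays on mutant-labelled replicate 2 and highest on replicate 3.

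Nr1d2 and the output factor Dbp set the mutant-labelled arrays apart from one another, while Nr1d1 did not. Nr1d1, among the most strongly rhythmic transcripts of peripheral tissues, read 10.44, 10.42 and 10.47 on them and 10.38, 10.57 and 10.51 in wild type. All 3 values lay inside the wild-type range, and the difference was −0.04 (95% interval −0.20 to 0.11; limma). Its paralog Nr1d2 read 10.00, 10.47 and 10.11 against 10.09, 10.08 and 10.07, so replicate 1 lay below wild type and replicate 2 well above. The difference of 0.11 (SE 0.11; limma, adjusted p = 0.779) turned to −0.025 without replicate 2. Dbp, an activator at D-boxes and a direct target of CLOCK and BMAL1, read 7.09, 7.66 and 7.71 against 7.25, 7.30 and 7.34. Replicate 1 was the lowest of all 6 arrays and the other arrays of its label the highest. With 6 arrays the difference was 0.19 (SE 0.14; limma, adjusted p = 0.701), and it was 0.10 without mutant-labelled replicate 2 and 0.077 without replicate 3. With 5 arrays it was 0.39 (SE 0.07, 1.31-fold, n = 2 against 3; limma, adjusted p = 0.0588), the smallest adjusted p of the 10.

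**Figure D2:**
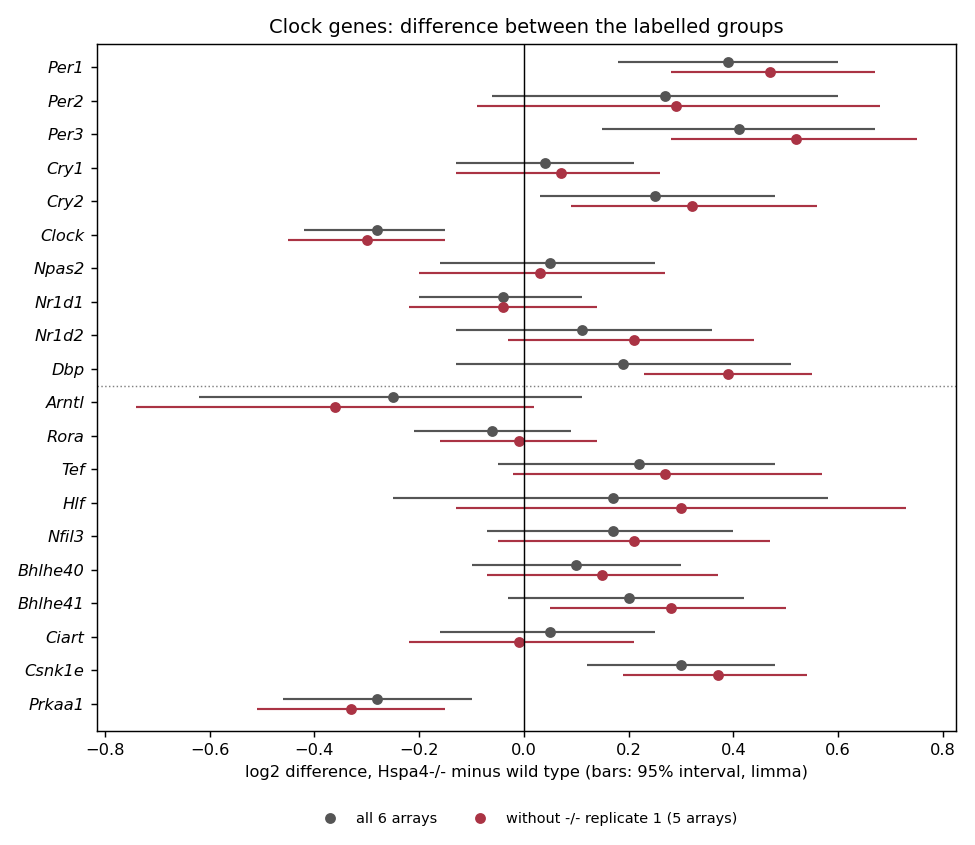
Log2 difference between the mutant-labelled arrays and wild type (x axis; points, with 95% intervals from limma as bars) for the 10 clock genes above the dotted line and 10 further clock genes below it, for all 6 arrays in grey and for 5 arrays in red. The 5-array intervals of Per1, Per3, Cry2, Dbp and Clock leave out 0, while those of Nr1d1, Npas2 and Cry1 lie on both sides of it.

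Further clock genes came from a list of 21, of which 19 were measured. With 6 arrays 0 of the 19 passed over all genes (limma), and 1 was higher and 1 lower at an unadjusted p under 0.05 (5.64% and 5.53% of all genes). The median difference was 0.05, with 13 of the 19 above 0, against 45.8% of all genes. Csnk1e, the gene of a casein kinase that phosphorylates PER proteins, read 8.18, 8.29 and 8.46 against 7.98, 8.04 and 8.01, a difference of 0.30 (SE 0.08; limma, adjusted p = 0.245). Prkaa1, the gene of a catalytic subunit of the AMP-activated kinase, which marks CRY proteins for breakdown, read 8.83, 8.78 and 8.58 against 9.04, 9.01 and 8.97. Its difference was −0.28 (SE 0.08; limma, adjusted p = 0.256). For both of these genes the groups did not overlap. On the 5 arrays 0 of the 19 passed (limma), where 0.44% of all genes passed, and the median was 0.07. At an unadjusted p under 0.05 (limma) 3 were higher and 1 lower, against 8.55% and 6.36% of all genes.

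Arntl, the gene of BMAL1 and so the counterpart of the day-phase genes, was low on a single array. It read 7.18, 6.58 and 7.13 on the mutant-labelled arrays and 7.10, 7.46 and 7.09 in wild type. Only replicate 2 of the mutant-labelled arrays lay outside the wild-type range. The difference was −0.25 (SE 0.16; limma, adjusted p = 0.628) with 6 arrays and −0.36 (SE 0.17; limma, adjusted p = 0.360) with 5. Hlf and Tef, the relatives of Dbp, were likewise highest on that array. Hlf read 8.85 there and 8.06 to 8.21 on the other 5, and Tef read 7.75 there and 7.09 to 7.43 elsewhere. Nfil3, a repressor at D-boxes that is usually in opposite phase to Dbp, was also highest there, at 7.23 against 6.78 to 6.89. The remaining named genes of the list overlapped between the groups on 6 arrays: Rora, an activator of Arntl, differed by −0.06, the repressors Bhlhe40 and Bhlhe41 by 0.10 and 0.20, and Ciart, a repressor of CLOCK and BMAL1, by 0.05.

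Mutant-labelled replicate 2 stood apart from the other arrays in several of these genes. It was the highest of the 6 arrays for 6 of the 10 members (Per1, Per2, Per3, Cry1, Cry2 and Nr1d2), where it was the highest for 13.7% of all genes. Of the 10 members, 7 lay above every wild-type array on it, against 25.1% of all genes. On replicate 3 there were 6 such members, against 24.9% of all genes, and on replicate 1 there were 4, against 26.5%. Wild-type replicate 2 was the highest of its group for 7 of the 10 members, where it was so for 32.6% of all genes.

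To set day-phase against night-phase genes, each gene was centred on its wild-type mean and the average of the 3 night-phase members was taken from that of the 7 day-phase members. This score is a description with no test, because the members were chosen with results known. It was 0.12, 0.50 and 0.25 on mutant-labelled replicates 1, 2 and 3, and −0.03, 0.03 and 0.00 in wild type. All mutant-labelled arrays lay above the wild-type arrays, whose SD was 0.03 against 0.20 on the mutant-labelled arrays. The mean difference was 0.29 on 6 arrays and 0.38 on 5. Most of it came from the day-phase side: the day-phase average differed by 0.23 and the night-phase average by −0.06 on 6 arrays. Within the night phase Clock alone was lower on every mutant-labelled array, and the 6-array score difference was 0.18 when Clock was left out. With Tef, Hlf, Ciart, Arntl and Nfil3 added, the score was 0.09, 0.50 and 0.19 on the mutant-labelled arrays and −0.03 to 0.02 in wild type. On replicate 2 some genes of the 2 phases lay on opposite sides of wild type. Per3 stood 0.68 above its wild-type mean, Hlf 0.70 above and Arntl 0.64 below. Others did not: on the same array Nr1d1 stood within the wild-type range, and Cry1 was 0.17 above its wild-type mean. Nfil3, added to the night phase, was 0.42 above its wild-type mean, and Ciart, added to the day phase, 0.05 below. The night-phase average there was −0.08 for the members and −0.09 with the added genes. The part of sampling time in these differences was not tested.

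**Figure D3:**
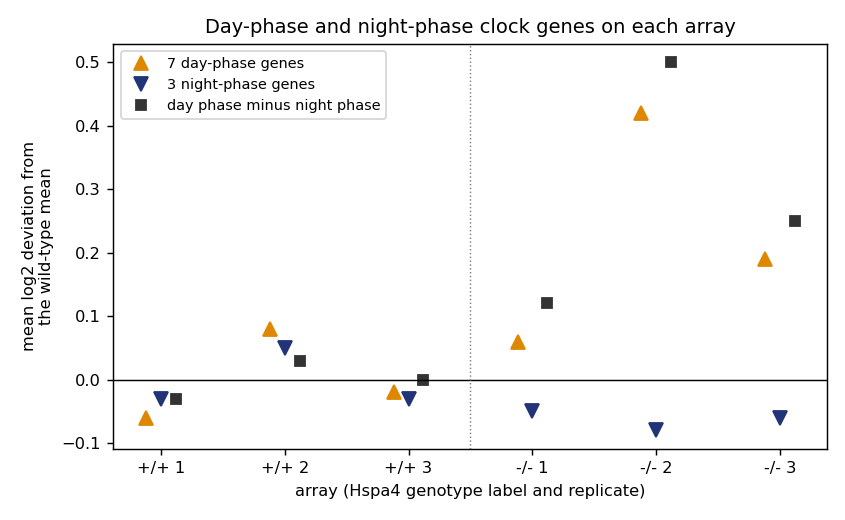
Mean log2 deviation from the wild-type mean (y axis) on each array (x axis) for the 7 day-phase clock genes, the 3 night-phase clock genes and their difference. The difference is 0.12, 0.50 and 0.25 on the mutant-labelled arrays and between −0.03 and 0.03 in wild type, and the night-phase average stays between −0.08 and 0.05 on all 6 arrays.

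Genes that the clock drives in many tissues were read beside the members. Of 14 listed outputs 13 were measured, 0 passed over all genes in either form (limma), and 3 were higher and 0 lower at an unadjusted p under 0.05 on 6 arrays (5.64% and 5.53% of all genes), with a median difference of 0.16. Usp2, a ubiquitin protease gene that follows Dbp and Per in many tissues, read 8.88, 9.29 and 8.93 against 8.66, 8.86 and 8.64, a difference of 0.31 (SE 0.11; limma, adjusted p = 0.349). Klf15, a transcription factor of cardiac metabolism, read 8.12, 8.21 and 8.26 against 7.67, 8.07 and 7.63, a difference of 0.41 (SE 0.11; limma, adjusted p = 0.250). In both the groups did not overlap, and wild-type replicate 2 lay nearest to the mutant-labelled arrays, as it did for Per1, Per3 and Cry2. The tensin gene Tns2 differed by 0.38 and Klf9, another Krüppel-like factor, by 0.21.

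Per1, Klf9 and Klf15 also answer to glucocorticoids, so a list of 14 such genes was read, all of them measured and some shared with the sets above. All 14 differences lay above 0 on 6 arrays (against 45.8% of all genes) and 13 on 5 (against 43.3%), and the median was 0.20 and 0.26. None passed over all genes in either form (limma), while 5 were higher at an unadjusted p under 0.05 on 6 arrays, against 5.64% of all genes. Mt2, a metallothionein gene, read 6.83, 7.08 and 7.00 against 6.34, 6.81 and 6.13, a difference of 0.54 (SE 0.15; limma, adjusted p = 0.256). Wild-type replicate 2 was the highest wild-type array for 13 of the 14, where it was so for 32.6% of all genes. Dusp1, a phosphatase gene of the list and also an immediate early gene, differed by 0.31. Groups did not overlap for 4 of the 14, against 6.08% of all genes in that direction. Fkbp5, a widely used glucocorticoid target named here after its values were seen, read 7.25, 7.38 and 7.06 against 7.11, 7.30 and 6.74. Its groups overlapped, and its difference of 0.18 (SE 0.14; limma, adjusted p = 0.705) lay near the median of the list.

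**Figure D4:**
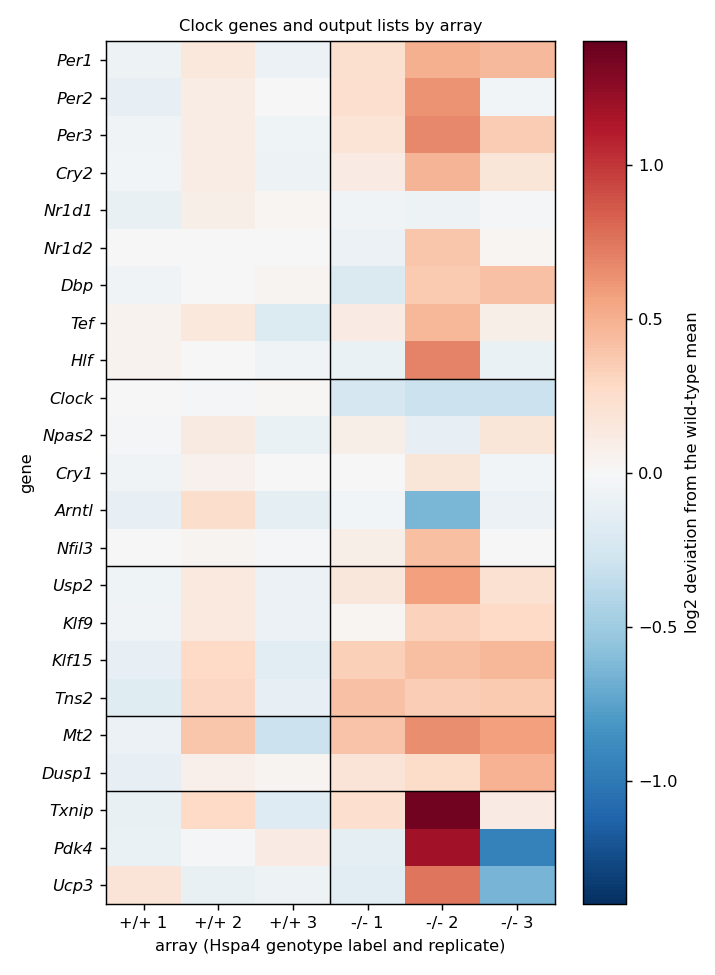
Log2 deviation from the wild-type mean (colour) of clock genes and of genes from the output, glucocorticoid and fasting lists (rows) on each array (columns); horizontal lines part the day-phase, night-phase, output, glucocorticoid and fasting genes. Mutant-labelled replicate 2 carries the deepest colours, with Txnip 1.35 and Pdk4 1.18 above and Arntl 0.64 below the wild-type mean.

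Genes raised by fasting stood out on the same array as the day-phase clock genes. Of 10 listed 9 were measured. On 6 arrays 0 of the 9 passed (limma), where 0% of all genes passed. None had an unadjusted p under 0.05 (limma), against 11.2% of all genes. Mutant-labelled replicate 2 was the highest array for 7 of the 9, where it was so for 13.7% of all genes. Txnip, a brake on glucose uptake, read 12.03 there and 10.50 to 10.96 on the other 5 arrays. Pdk4, which turns the heart from glucose to fat, read 11.14 there and 9.01 to 10.07 elsewhere, and the uncoupling protein gene Ucp3 read 7.78 against 6.38 to 7.21. Mutant-labelled replicate 3 was the lowest of the 6 arrays for Pdk4 (9.01), Ucp3 (6.38), Angptl4 (5.87) and Fgf21 (5.94), where it was so for 22.2% of all genes. Pdk4, Ucp3 and Fgf21 were named after their values were seen. Angptl4 differed by 0.19, Plin2 by 0.15 and Cpt1a by 0.07 between the groups. The feeding state of the mice was not given in the sources used here, and its part in the clock gene values was not tested.

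Body temperature follows the time of day and is read by heat-inducible and cold-inducible genes. Among 15 listed heat-inducible genes 12 were measured, and 0 were higher and 5 lower at an unadjusted p under 0.05 on 6 arrays (limma; 5.64% and 5.53% of all genes), with a median difference of −0.20. Hsph1, a relative of Hspa4, and the co-chaperone gene Chordc1 fell over all genes on the 5 arrays (limma, adjusted p = 0.00334 and 0.0127), by 1.00 and 0.82 on the log2 scale. Fkbp4 and Stip1, of the same list, differed by −0.40 and −0.27 with 6 arrays. These genes also belong to the chaperone network of Hspa4 itself. The cold-inducible Cirbp read 8.20, 8.14 and 8.28 against 7.90, 8.10 and 7.79, whereas Rbm3 read 7.20, 7.09 and 6.22 against 7.54, 7.17 and 7.31. Cirbp was thus higher without overlap and Rbm3 had a lower mean, and neither passed over all genes (limma, adjusted p = 0.292 and 0.445). Immediate early genes, which like Per1 can answer a stimulus quickly, had a median difference of 0.05 over 16 genes with 6 arrays, and 0 passed (limma). At an unadjusted p under 0.05 (limma) 1 of the 16 was higher and 0 lower, against 5.64% and 5.53% of all genes. The repressor of cytokine messages Zfp36 differed by 0.20, Nr4a2 by −0.16 and Fosb by −0.15.

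Per2, as the member with the widest range, was compared with every named gene whose range was at least 0.5 of its own, 4528 genes in all. The closest pattern over the 6 arrays, by the root mean square difference of values centred on each gene's mean, was that of the solute carrier gene Slc43a3 (0.07). Next came Herpud1 (0.08), a gene of endoplasmic reticulum protein breakdown, the cholesterol transport gene Npc1 (0.09), the water channel gene Aqp1 (0.09) and the carbonic anhydrase gene Car4 (0.09). All 5 had their highest value on mutant-labelled replicate 2, as Per2 did, which follows from their choice by likeness to Per2. Slc43a3 read 9.93, 10.18 and 9.54 against 9.49, 9.81 and 9.50.

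Some cell type markers did not overlap between the groups. Summed atrial markers (4 of 4 measured) lay between 7.21 and 7.70 on the mutant-labelled arrays and between 6.87 and 7.12 in wild type. Of these 4, Nppa, the gene of atrial natriuretic peptide, was the only one whose groups did not overlap (9.43, 10.52 and 11.49 against 8.62, 8.94 and 8.50). The Nppa difference was 1.80 with 6 arrays (limma, adjusted p = 0.213). With 5 arrays it was 2.32 and passed over all genes (limma, adjusted p = 0.0127). Myl4, Myl7 and Sln overlapped and differed by 0.23, 0.15 and 0.03. Macrophage markers (5 of 5) lay between 7.28 and 7.32 against 7.44 to 7.54, and cardiomyocyte markers (6 of 6) between 12.11 and 12.16 against 11.97 to 12.07. Single markers did not overlap for 4 of the 5 macrophage genes, all lower, against 9.07% of all genes in that direction. Among the 6 cardiomyocyte genes there were 3, all higher, against 6.08% of all genes. These were Myl2, Tnni3 and Ryr2, which differed by 0.28, 0.23 and 0.06. Summed fibroblast, endothelial, and smooth muscle and pericyte markers overlapped between the groups. Of the single genes in these lists, only the pericyte gene Pdgfrb did not overlap on 6 arrays. It was higher on the mutant-labelled arrays, by 0.29 (SE 0.08; limma, adjusted p = 0.245). The part of these shifts in the clock gene values was not tested.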

How the data were processed

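Ventricle RNA from 6 mice was measured on 1 array each. The deposited values are log2 expression, 1 per probe set and array, made by the authors with the affy package in R 2.13.0, per the submitters' processing notes. Background correction, normalisation and summary method were not given in the sources used here, and no background measure was used, so the number of arrays limits the precision. Of 21225 probe sets 20239 carried 1 gene symbol, 0 several and 986 none.

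Groups came from the labels. A 2-group model was fitted to all 20239 genes with limma 3.58.1 (lmFit and eBayes, R 4.3.3), with no low-value filter, a threshold of 0.05 and p-values adjusted by Benjamini-Hochberg over all genes. It was run on 6 arrays and on the 5 without Hspa4-/- replicate 1, and was tested on simulated data. P-values set the group difference against the spread between these mice, with each gene's variance moderated over all genes. On 6 arrays that spread includes the array that went against its label.

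The members, lists and tests were chosen with earlier results of these data known. Named genes were all members, up to 4 per further list by smallest p, and fixed core clock genes. Alternatives were low-value filters (25% and 50%), quantile normalisation, subtracted medians, array weights, a trended robust fit, a replicate block and leaving out each array. Promoter sequence came from RefSeq, GRCm38.p6.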

Additional observations from a re-analysis of the deposited data

How the results depend on the processing

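No member passed in either form as first fitted. On 6 arrays 1 of the 10 members (Per1) passed with array weights, and 0 with each array left out. On 5 arrays 1 (Per1) passed with the lowest 25% or 50% of genes left out and 3 (Per1, Per3 and Dbp) with array weights, and leaving out single arrays gave 0 to 3, the 3 without wild-type replicate 2. Some differences turned sign with 1 array out. On 6 arrays Cry1 ranged from −0.022 to 0.082, Npas2 from −0.017 to 0.13 and Nr1d2 from −0.025 to 0.21. On 5 arrays Per2, with a difference of 0.29 before, ranged from −0.045 (without mutant-labelled replicate 2) to 0.63, Cry1 from −0.039 to 0.17, Npas2 from −0.12 to 0.18 and Nr1d1 from −0.094 to 0.001. Quantile normalisation turned Npas2 to −0.027 on 5 arrays. Per1, Per3, Cry2, Clock and Dbp kept their direction in every alternative run, though Dbp on 6 arrays ranged from 0.077 to 0.39 with 1 array out. The 5-array score difference of 0.38 was 0.26 without Clock and 0.25 to 0.50 with single arrays out, and on 6 arrays it was 0.18 to 0.38. The cause of these shifts was not tested.

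Deviations of same-numbered arrays from their group means correlated at −0.17, 0.09 and −0.25 across genes. With 3 arrays centred in each group, these correlations cannot decide whether replicate numbers pair the arrays. A replicate block left 0 members past the threshold on 6 and on 5 arrays, and moved the count over all genes from 0 to 2 and from 89 to 134. With 3 arrays against 3, or 2 against 3, small differences cannot be told from the spread between mice.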
